A study of Callithrix jacchus with 6 samples.

Results

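Oligodendrocyte precursor cells (OPCs) were the 1791 cell barcodes, of 46582 in all (3.84%), that were selected on their measured transcripts. A barcode was kept where PDGFRA or VCAN had a unique molecular identifier (UMI, 1 counted transcript molecule) and at least 4 of the 7 genes PDGFRA, VCAN, LHFPL3, STK32A, PCDH15, SOX6 and CACNG4 were detected. Those 7 genes had to supply at least 30 of every 10000 UMIs. At most 1 UMI was allowed over MOG and OPALIN of mature oligodendrocytes, ALDH1L1 of astrocytes, GAD2 of GABAergic neurons and SLC17A7 of glutamatergic neurons. The data are single-cell 3' RNA counts of the hippocampus of the common marmoset (Callithrix jacchus), from animals the series describes as aged. The 3 control libraries carry the treatment label control and the title oxygen, and the other 3 carry sevoflurane, an inhaled anaesthetic, each for 6 h. Per the labels' protocols, libraries were made from collagenase-dissociated cells that had been stored frozen and then thawed. No allele, sex or exact age is labelled, and the labels do not say whether libraries of a group came from separate animals, so p-values measure the spread between libraries, which may be technical.

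OPCs, also known as NG2 glia, are a dividing population of the adult brain that gives rise to myelinating oligodendrocytes. They depend on PDGF signalling through PDGFRA, receive synapses from neurons through glutamate and GABA receptors, and pass through a committed, GPR17-positive state before they make myelin. Corticosteroids act on glia through the glucocorticoid receptor (NR3C1) and the mineralocorticoid receptor (NR3C2). FKBP5, the gene in the title of the series, encodes a co-chaperone that holds the glucocorticoid receptor in a state of low affinity and is itself induced by glucocorticoids.

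Control replicates 1 to 3 held 311, 312 and 374 OPCs, and sevoflurane replicates 1 to 3 held 331, 269 and 194. Per library the OPCs supplied 760793 to 1189531 UMIs, with a median of 2689 to 3491.5 UMIs per cell. The least deep OPC had 681 UMIs and the deepest 19836. OPCs were 4.24% ± 0.414 (SD, n = 3) of the barcodes in control and 3.42% ± 0.604 in sevoflurane libraries, a difference of -0.815 percentage points (2-sided exact permutation test, p = 0.2, where 0.1 is the smallest p that 3 libraries against 3 allow). Sevoflurane replicate 3 stood apart. It had the lowest OPC share (2.73%) and the deepest OPCs, and CACNG4 was detected in 68.6% of its OPCs against 39.0% to 45.0% elsewhere. Between 13 and 27 barcode sequences were shared by any 2 libraries, at most 1 of them an OPC in both.

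The genes that chose the cells were far higher in them than in the other barcodes. PDGFRA, the PDGF receptor alpha chain, was at 798 CPM (counts per 1000000 UMIs) in OPCs and 9.0 CPM in the other barcodes, as means of 6 libraries. VCAN, the matrix proteoglycan versican, was at 1374 against 18.8 CPM, and LHFPL3 at 6993 against 193 CPM. These values chose the cells and are given as a description. Of the 1791 cells, 377 had all 7 genes and 152 only 4. PDGFRA had no UMI in 249 and VCAN none in 137. Near the limit, 10 barcodes lay between 30 and 35 UMIs of these genes per 10000 and were kept, and 11 between 25 and 30 met the other conditions and were not. A further 263 barcodes were left out on exactly 2 UMIs of the 5 excluded genes.

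The genes leading the OPC profile outside the selection included proteins of the cell surface, matrix and oligodendrocyte lineage. Of 3064 genes with at least 50 CPM in the OPCs of every library, 133 genes outside the selection were on average at least 2 log2 units above the other barcodes. The first 15 by that ratio were the unnamed gene ENSCJAG00000060858, then NEU4, SLC22A3, CDH23, RNF43, CPM, LAMA4, WSCD1, SMOC1, TFPI, RIN2, C1QL1, BCAS1, MYT1 and ARSJ. NEU4, a sialidase, was at 95.5 CPM in OPCs against 1.78 CPM elsewhere, a log2 ratio of 4.84 to 5.47 across the libraries. RNF43, a ubiquitin ligase that removes WNT receptors, was at 131 against 4.90 CPM. MYT1, a zinc finger factor of the oligodendrocyte lineage, was at 220 CPM in OPCs, 22.6 CPM in GABAergic neurons and 0.867 CPM in mature oligodendrocytes. BCAS1, a gene of early myelinating cells, was at 601 CPM in OPCs and 358 CPM in mature oligodendrocytes.

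**Figure D1:**
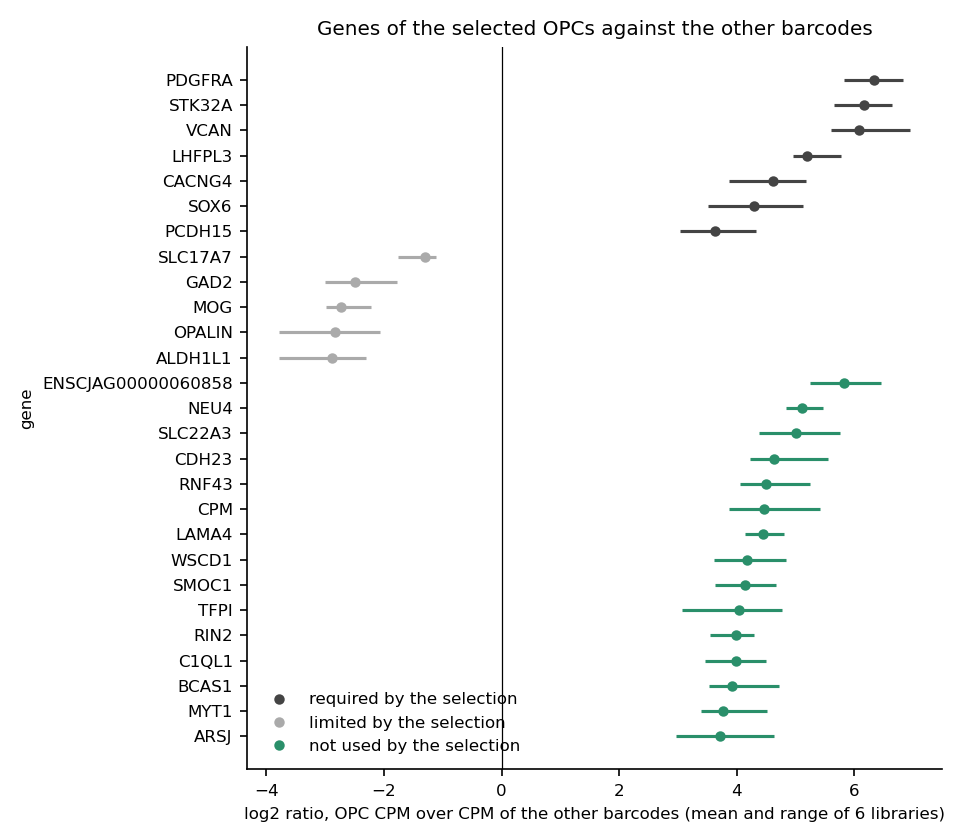
Mean log2 ratio of the level in OPCs to that in all other barcodes (x axis, points; lines span the lowest to the highest of 6 libraries) for the genes the selection required, those it limited and the 15 leading genes it did not use (y axis). The first and last kind describe the selected cells, with no test, and each of the 15 leading genes is above 2 in every library.

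Of the 22 genes of the matrix and proteoglycan list, 11 were among these 133, including the chondroitin sulfotransferase CHST11 (3343 against 312 CPM), the receptor phosphatase PTPRZ1 (2840 against 319 CPM) and tenascin R, TNR (444 against 66.6 CPM). A list of OPC identity genes outside the selection gave 8 of 23. PTPRZ1, TNR, XYLT1, CSPG5, MMP16 and BCAN belonged to both lists. The WNT, BMP, Notch and hedgehog list gave 4 of 33 (RNF43, SOX13, TCF7L1, NKD1), the growth factor list 2 of 30 (FGFR1, ETV5) and the glutamate receptor list 1 of 21 (the kainate receptor subunit GRIK1). Over all genes it was 133 of the 3064 with at least 50 CPM. The lists count every named member at any level, so the bases differ. The growth factor and glutamate receptor counts single out neither list. Some standard markers were poorly counted. OLIG2 averaged 1.39 CPM and OLIG1 0.528 CPM in OPCs, with no UMI of either in at least 1 library, while SOX10 was at 45.8 against 5.13 CPM and CSPG4 (NG2) at 25.3 against 1.91 CPM.

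UMIs of GPR17, MKI67 and TOP2A were rare in the selected population, and those of BCAS1 were common. GPR17 had a UMI in 13 of the 1791 OPCs. After each cell was thinned to 1000 UMIs, which left out 12 shallower OPCs, the share with a GPR17 UMI was 0.0901% ± 0.156 (SD, n = 3) in control and 0.327% ± 0.306 in sevoflurane libraries (exact permutation p = 0.4), and 0 in GABAergic neurons. MKI67, a gene of dividing cells, had no UMI in any thinned OPC, which allows a share of up to 0.811% to 1.55% in the single libraries. That limit, 3 cells of the total, concerns cells with a UMI and covers counting error only. TOP2A, also a gene of dividing cells, was found in 0.594% ± 0.249 of thinned control and 0.101% ± 0.175 of thinned sevoflurane OPCs (exact permutation p = 0.1). These shares rest on at most 3 cells per library, and GABAergic neurons had 0.440% and 0.105%. After thinning to 2000 UMIs the TOP2A shares of OPCs were 0.900% and 0.568% (exact permutation p = 0.4). BCAS1 was found in 44.2% ± 1.07 of thinned control OPCs and 40.6% ± 5.03 of thinned sevoflurane OPCs (exact permutation p = 0.4), and in 77.7% and 71.5% without thinning.

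Transcripts of other cell types were present in the selected cells, and some of them differed between the groups. The 13 ependymal (motile cilia) genes summed to 503 to 810 CPM in control and 367 to 469 CPM in sevoflurane OPCs, and the 8 astrocyte genes to 1080 to 1358 and 751 to 955 CPM. The 5 fibroblast genes summed to 9.36 to 28.6 and 0 to 5.2 CPM. In the other barcodes these 3 lists averaged 1130, 1388 and 22.2 CPM. In none of the 3 lists did the groups overlap, and every gene of the 3 lists had a UMI in OPCs. Sums of the 8 oligodendrocyte, 7 microglia, 5 endothelial and 4 neuronal genes overlapped between the groups, whereas the 4 pericyte genes summed to 8.32 to 11.6 CPM in control and 12.5 to 18.4 CPM in sevoflurane OPCs. The 4 GABAergic genes summed to 145 to 223 CPM in OPCs against 128 CPM in the other barcodes. The 4 glutamatergic genes summed to 85.3 to 150 against 307 CPM. More than 3 ependymal UMIs were found in 170 OPCs, and scrublet marked 96 as doublets. All 3 genes called below were also called without either set of barcodes.

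Sevoflurane OPCs differed from control OPCs in 3 named genes. HDAC9, a class IIa histone deacetylase, fell, and IGFBP5, a secreted protein that binds insulin-like growth factors, and EEF2K, the kinase that phosphorylates elongation factor 2 and slows translation, rose. UMIs were summed over the OPCs of each library and tested with edgeR's quasi-likelihood test and Benjamini-Hochberg adjustment. Of 9056 genes tested these 3 passed an adjusted p of 0.05 (0.0331%). The 7 selection genes were among those fitted, but as they chose the cells their tests are not used. At an unadjusted p under 0.05, 273 genes were higher (3.01%) and 267 lower (2.95%) in sevoflurane, and 1031 genes (11.4%) had no overlap between the groups. The median log2 fold change over all genes tested was 0.01. The unnamed genes made up 796 of those tested and none was called.

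HDAC9 was at 993, 1293 and 1045 CPM in control replicates 1 to 3 and at 281, 251 and 505 CPM in sevoflurane replicates 1 to 3. Each control library was above each sevoflurane library, and sevoflurane replicate 3 was the highest of its group. The log2 fold change was -1.69 ± 0.22 (SE; edgeR adjusted p = 0.0308). The difference was visible cell by cell. In OPCs thinned to 1000 UMIs, 58.0% ± 4.35 (SD, n = 3) of control cells and 23.2% ± 4.85 of sevoflurane cells had an HDAC9 UMI, and 84.4% and 45.9% without thinning. After thinning to 1000 UMIs, cells with 3 or more HDAC9 UMIs were 11.6% to 16.9% of the control libraries and 0 to 3.61% of the sevoflurane libraries. Among GABAergic neurons, 38.9% and 29.3% of thinned cells had a UMI (35.2% of sevoflurane cells without replicate 3, which stood at 17.5%), with median depths of 6209.5 to 8937.5 UMIs before thinning. The thinned shares were 24.6% and 15.8% in mature oligodendrocytes, without overlap, and 16.1% and 9.70% in astrocytes. Without sevoflurane replicate 3 the sevoflurane shares of these 2 classes were 15.4% and 8.74%. HDAC9 in the remaining barcodes averaged 423 CPM in control and 265 CPM in sevoflurane libraries.

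IGFBP5 was at 110, 88.3 and 69.2 CPM in the control OPCs and at 215, 217 and 203 CPM in the sevoflurane OPCs. No value of one group lay within the range of the other. The log2 fold change was 1.26 ± 0.17 (SE; edgeR adjusted p = 0.0308). The share of thinned OPCs with an IGFBP5 UMI was 7.45% ± 1.14 in control and 17.1% ± 0.546 in sevoflurane libraries, against 0.757% and 0.578% of GABAergic neurons. Without thinning it was 19.7% and 40.9%, against 5.25% and 5.98%. In all barcodes outside the OPCs, IGFBP5 averaged 21.0 CPM in control and 22.6 CPM in sevoflurane libraries. The thinned shares were 0.392% and 3.06% in mature oligodendrocytes, from at most 2 cells with a UMI per library, and 2.66% and 1.31% in astrocytes.

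EEF2K was at 205, 181 and 159 CPM in the control OPCs and at 313, 407 and 431 CPM in the sevoflurane OPCs, again without overlap. The log2 fold change was 1.08 ± 0.15 (SE; edgeR adjusted p = 0.0393). An EEF2K UMI was found in 15.5% ± 1.25 of thinned control OPCs and 30.7% ± 3.10 of thinned sevoflurane OPCs, and in 39.1% and 62.3% without thinning. Mature oligodendrocytes had 230 CPM in control and 524 CPM in sevoflurane libraries, and astrocytes 172 and 253 CPM.

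**Figure D2:**
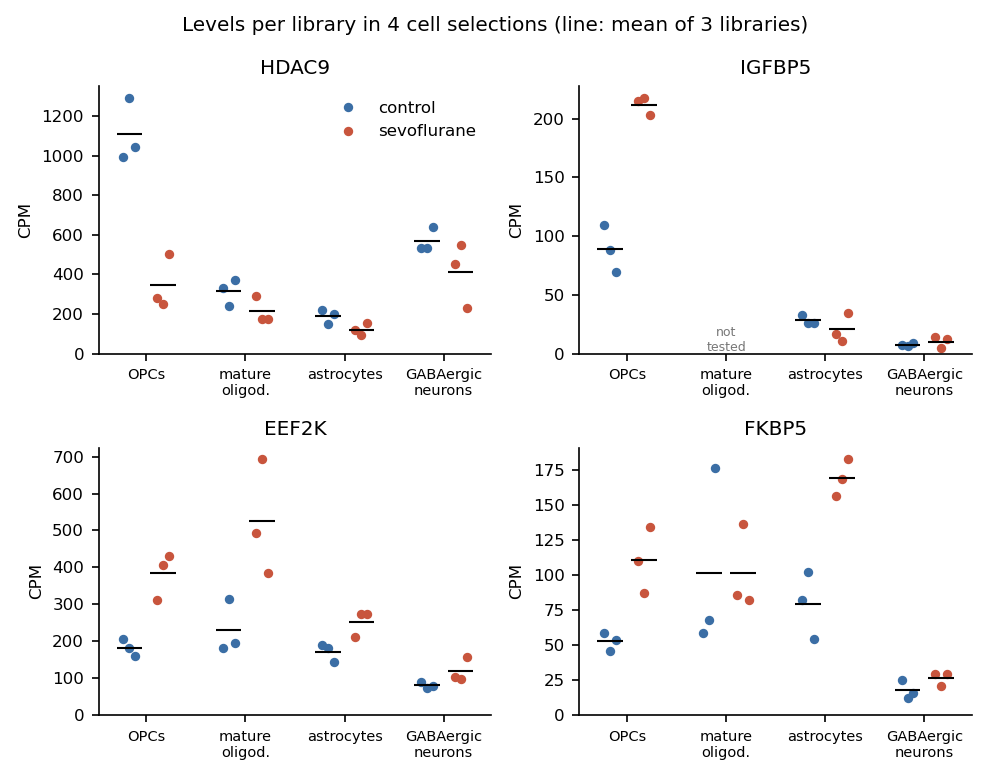
CPM (y axis, from 0) of HDAC9, IGFBP5, EEF2K and FKBP5 in OPCs, mature oligodendrocytes, astrocytes and GABAergic neurons (x axis); points are the 3 libraries of each group and lines their means. In OPCs the groups do not overlap for any of the 4 genes. IGFBP5 was too low to be tested in mature oligodendrocytes.

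The calls were sensitive to single libraries. With edgeR, leaving out control replicate 1, control replicate 2, control replicate 3 or sevoflurane replicate 1 left 0 genes past the threshold, with 572, 472, 406 and 580 genes at an unadjusted p under 0.05. HDAC9 then had adjusted p-values of 0.0765, 0.122, 0.272 and 0.159, IGFBP5 of 0.0543, 0.135, 0.272 and 0.159, and EEF2K of 0.0765, 0.187, 0.610 and 0.0754. Without sevoflurane replicate 2, 4 genes passed, with EEF2K at 0.0693, and without sevoflurane replicate 3, 23 passed, the 3 called genes among them. The 23 also held VCAN, a selection gene, and GLI3, which reached the main count filter only in control libraries. Over all alternatives the log2 fold change stayed between -2.07 and -1.51 for HDAC9, 1.09 and 1.43 for IGFBP5 and 0.98 and 1.21 for EEF2K.

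FKBP5 was higher in each sevoflurane library than in each control library and did not pass the threshold over all genes. It was at 58.2, 45.8 and 53.9 CPM in control and 110, 87.4 and 134 CPM in sevoflurane OPCs, from 42 to 63 and 68 to 103 UMIs per library. The log2 fold change was 1.06 ± 0.20 (SE), with an unadjusted p of 0.000169 and an edgeR adjusted p of 0.17. An exact permutation of the 6 libraries gave p = 0.1, the smallest possible. After thinning to 1000 UMIs, 4.57% ± 0.516 (SD, n = 3) of control OPCs and 8.55% ± 0.276 of sevoflurane OPCs had an FKBP5 UMI (exact permutation p = 0.1). The control libraries lay at 5.16% (exact 95% interval 2.98 to 8.25), 4.22% and 4.32%, and the sevoflurane libraries at 8.79% (5.96 to 12.4), 8.61% and 8.25%. GABAergic neurons, where the level was lowest of the 4 cell selections, had 1.62% and 2.54%. Without thinning the shares of OPCs were 12.2% ± 1.96 and 21.2% ± 1.93, and those of GABAergic neurons 9.78% and 15.04%. The log2 fold change was 0.77 without the 170 barcodes with ependymal UMIs.

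The corticosteroid receptors and their chaperones had no called gene. NR3C1 was at 223, 228 and 239 CPM in control and 244, 245 and 247 CPM in sevoflurane OPCs (log2 fold change 0.10 ± 0.11, edgeR adjusted p = 0.968). NR3C2 was at 455, 518 and 517 against 529, 504 and 440 CPM (-0.02 ± 0.12, adjusted p = 0.991), and its sign changed with the settings. Among the 21 genes of the glucocorticoid response list, 9 were tested. None was called, 6 were above 0 and 3 below, and the list's median was 0.04 against 0.01 over all genes. That median was not stable. It was 0.45 without sevoflurane replicate 3, 0.23 without the barcodes with ependymal UMIs and 0.22 without doublets. Without sevoflurane replicate 3, 9 of 12 tested were above 0, 4 of them at an unadjusted p under 0.05. Of all 9467 genes tested in that setting, 328 were higher at that level. At an unadjusted p under 0.05, 3 of the 9 were higher and none lower, namely FKBP5, DDIT4 and ZBTB16. Over all genes tested, 3.01% were higher and 2.95% lower at that level. DDIT4, which encodes an inhibitor of the mTORC1 kinase, was at 12.1, 7.63 and 8.55 CPM in control and 20.3, 29.5 and 19.1 CPM in sevoflurane OPCs (log2 fold change 1.28 ± 0.35, edgeR adjusted p = 0.491). It reached the count filter, 10.5 CPM, in all 3 sevoflurane and 1 control library, so it entered the test through the group where it was high. ZBTB16, a zinc finger repressor, averaged 228 and 304 CPM (0.41 ± 0.14, adjusted p = 0.626). TSC22D3 (GILZ) was at 99.4 and 86.3 CPM and SGK1 at 334 and 335 CPM, with overlapping groups. Of 14 tested receptors and chaperones 13 were below 0 (48.2% over all genes), with a median of -0.20. None was called and 1 (PTGES3) was at an unadjusted p under 0.05. Without sevoflurane replicate 3, 10 of 14 were below 0.

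Other genes near the threshold were given by rank of p and did not pass it. KAZN, the gene of the scaffold protein kazrin, was at 2562, 2914 and 2901 CPM in control and 4364, 3930 and 4489 CPM in sevoflurane OPCs (log2 fold change 0.61 ± 0.11, edgeR adjusted p = 0.149). On the lower side, SLC24A3, a potassium-dependent sodium/calcium exchanger, averaged 625 and 401 CPM (-0.64 ± 0.13, adjusted p = 0.299). GLI3, a hedgehog pathway factor, averaged 37.0 and 7.66 CPM (-2.26 ± 0.38, adjusted p = 0.135), KIAA2012 32.1 and 6.41 CPM, and the lipid kinase gene PIK3C2G 23.6 and 2.66 CPM. GLI3, KIAA2012 and PIK3C2G reached the count filter of 10.5 CPM in the 3 control libraries and in 0 sevoflurane libraries (25 of the 9056 genes tested did so, these 3 included), so they entered the test only through the group where they were high and their tests carry no weight of their own. With DESeq2, KAZN passed (adjusted p = 0.00391).

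Low-level genes that other cell types express strongly were prominent on the lower side. Each of the 11 tested ependymal genes was below 0, 8 of them at an unadjusted p under 0.05 and none called, with a median log2 fold change of -1.12. Of all genes tested, 48.2% were below 0 and 2.95% were lower at an unadjusted p under 0.05. CAPS, a calcium-binding protein of ciliated cells, averaged 29.0 and 6.51 CPM in control and sevoflurane OPCs, and CFAP299 187 and 120 CPM. CAPS reached the count filter in 3 control and 1 sevoflurane library, so it entered the test through the group where it was high. Of the 11 ependymal genes, 7 reached the filter in all 6 libraries. Without the barcodes holding over 3 ependymal UMIs, which that list itself picks out, 5 of 8 tested ependymal genes were below 0 with a median of -0.21, 2 of them at an unadjusted p under 0.05, and CFAP299 stood at 0.09. The 4 tested astrocyte genes were also all below 0 (median -0.70), each at an unadjusted p under 0.05. The median was -0.72 without the ependymal barcodes, -1.09 without sevoflurane replicate 3 (6 tested) and -0.42 without doublets, where 2 of 4 were at an unadjusted p under 0.05. GFAP, the astrocytic intermediate filament, averaged 46.8 and 11.95 CPM in OPCs against 527 and 320 CPM in astrocytes, and the bicarbonate transporter gene SLC4A4 averaged 171 and 83.1 CPM in OPCs against 3031 and 2504 CPM. GLI3 was at 1071 and 1021 CPM in astrocytes, and at 11.4 and 3.94 CPM in GABAergic neurons. The summed ependymal and astrocyte marker levels given above moved with the groups in the same direction, and their part in these values and in that of GLI3 was not tested.

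**Figure D3:**
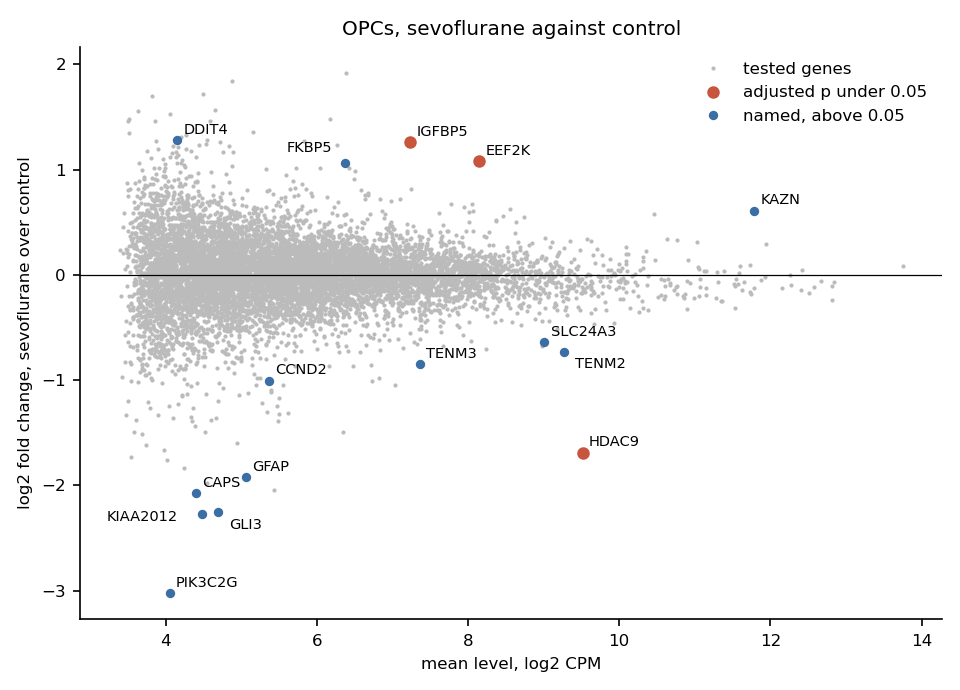
Log2 fold change of sevoflurane over control (y axis) against mean log2 CPM (x axis) for the 9056 genes tested in OPCs. The 3 genes with an edgeR adjusted p under 0.05 are red, and 12 named genes that did not pass are blue; the spread widens towards low levels.

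Genes of OPC identity and of the passage to oligodendrocytes lay on both sides of 0. Of 24 identity genes outside the selection, 18 were tested, 10 above and 8 below 0, with none called. SEMA5A, a semaphorin, averaged 1540 and 1933 CPM in control and sevoflurane OPCs (0.33 ± 0.12, edgeR adjusted p = 0.728), and TMEM132D 1014 and 803 CPM. Of the committed and premyelinating list, 13 were tested with 6 above 0. ENPP6, a choline phosphodiesterase of newly forming oligodendrocytes, averaged 25.7 and 39.2 CPM, and BCAS1 690 and 548 CPM, each without overlap and neither called (adjusted p = 0.826 for both). Among 11 tested myelin genes 7 were above 0, and MAL, a myelin proteolipid, averaged 11.2 and 19.5 CPM (adjusted p = 0.832). Only 7 of 31 cell cycle genes had enough counts. CCND2, the cyclin D2 of early cell cycle entry, was at 45.0, 58.9 and 49.6 CPM in control and 23.5, 28.3 and 24.6 CPM in sevoflurane OPCs (-1.01 ± 0.23, adjusted p = 0.329). Of the selection genes, described with no test, STK32A averaged 296 and 457 CPM, VCAN 1130 and 1686 CPM and PDGFRA 789 and 852 CPM.

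Glutamate receptor and adhesion genes lay mostly below 0, GABA-A subunits less so, and none was called. Of 20 tested glutamate receptor genes 15 were below 0 (median -0.14, or -0.085 without doublets), 3 at an unadjusted p under 0.05, with 1 above. GRIA1, an AMPA receptor subunit, was at 517, 633 and 579 CPM in control and 452, 421 and 401 CPM in sevoflurane OPCs (-0.44 ± 0.12, edgeR adjusted p = 0.491). GRIN2B, an NMDA receptor subunit, averaged 539 and 402 CPM (adjusted p = 0.491). Both had no overlap between the groups. Of 10 GABA-A receptor subunit genes 4 were above 0 and 6 below, among the latter GABRA2 (160 and 104 CPM) and GABRG1 (30.2 and 11.5 CPM). Of 33 axon guidance and adhesion genes 25 were below 0 (median -0.14), 6 at an unadjusted p under 0.05 with 2 above. In that list TENM3 averaged 207 and 116 CPM and TENM2 768 and 464 CPM; both encode teneurins, adhesion proteins at cell contacts. TENM2 and TENM3 passed the threshold without sevoflurane replicate 3 (edgeR adjusted p = 0.0183 for both), and the log2 fold change of TENM2 was -0.49 without sevoflurane replicate 2. Over all genes tested, 48.2% were below 0. At an unadjusted p under 0.05, 2.95% of all genes were lower and 3.01% higher.

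Growth factor, matrix and signalling lists had no called member except EEF2K. Of 23 tested growth factor receptors and signalling genes 16 were below 0 (median -0.16, or -0.24 without sevoflurane replicate 3), including NTRK2, the receptor of brain-derived neurotrophic factor (717 and 551 CPM). In the matrix list 13 of 18 were below 0, and in the WNT, BMP, Notch and hedgehog list 14 of 21 (12 of 22 without sevoflurane replicate 3). DLL1, a Notch ligand, was at 45.0, 32.7 and 25.6 CPM in control and 66.2, 83.5 and 57.3 CPM in sevoflurane OPCs (1.02 ± 0.25, edgeR adjusted p = 0.417). The mTOR, insulin and FOXO list had 24 tested genes, 15 above 0 (12 without sevoflurane replicate 3), with EEF2K called. DDIT4, which that list shares, was at an unadjusted p under 0.05 but entered the test through the group where it was high. Among all genes tested, 48.2% were below 0 and 3.01% were higher at an unadjusted p under 0.05.

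Stress and housekeeping lists had no called member. The heat shock list had 14 of 15 tested genes below 0 (48.2% over all genes) and a median of -0.35, with none at an unadjusted p under 0.05. Without sevoflurane replicate 3 it had 11 of 15 below 0 and a median of -0.18. HSP90AA1, a cytosolic chaperone, was at 318, 290 and 415 CPM in control and 390, 351 and 142 CPM in sevoflurane OPCs, so that replicate 3 alone was low. Its log2 fold change was -0.21 with that library and 0.11 without it. The 7 tested interferon-stimulated genes had a median of 0.29 with 5 above 0, and the 14 ribosomal protein genes a median of 0.10, or 0.37 without sevoflurane replicate 3. Cholesterol synthesis (9 tested), circadian clock (11), respiratory chain (11) and MRTF-SRF and actin genes (8) had medians of 0.15, 0.06, 0.07 and -0.08, with no member at an unadjusted p under 0.05. Without sevoflurane replicate 3 those of the clock, respiratory chain and actin genes were -0.10, 0.27 (11 of 11 above 0, 1 at an unadjusted p under 0.05) and -0.16, and cholesterol synthesis was at -0.0039 without the ependymal barcodes. Of 20 immediate early genes 1 was tested.

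**Figure D4:**
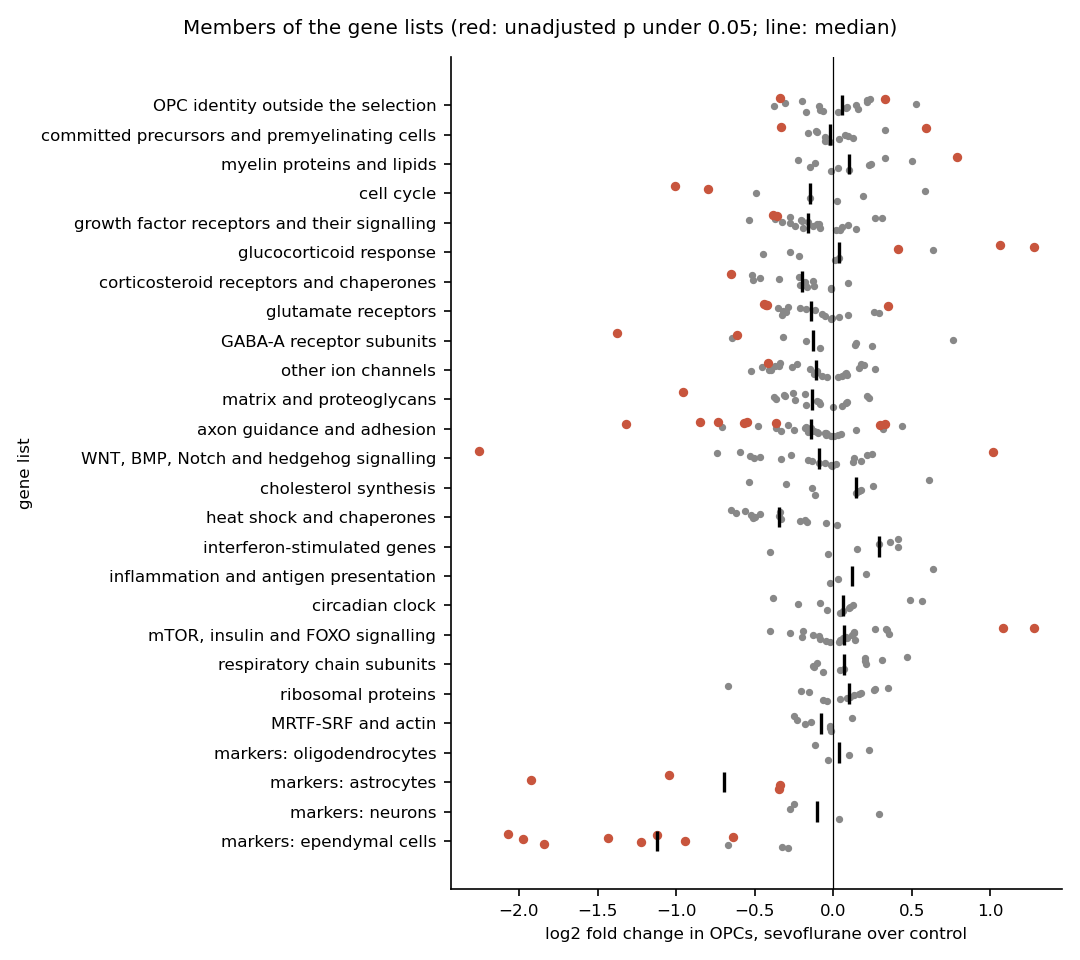
Log2 fold changes of sevoflurane over control in OPCs (x axis) for the tested members of each list with at least 4 of them (y axis); black lines are medians and red points have an unadjusted p under 0.05. The ependymal and astrocyte markers lie furthest to the left, with medians of -1.12 and -0.70.

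Whether the response of OPCs differed from that of other glia was tested on within-library differences with limma. In each library the log2 CPM of the compared cells was subtracted from that of the OPCs, and the difference was compared between the groups. Against 3314 astrocytes, 4 of 8731 genes passed an adjusted p of 0.05 (0.0458%). PDE3A, a cyclic nucleotide phosphodiesterase, was at 376, 357 and 374 CPM in control and 348, 411 and 422 CPM in sevoflurane OPCs, and at 109, 157 and 113 against 23.9, 30.3 and 28.8 CPM in astrocytes. The responses differed by 2.21 ± 0.19 log2 units (SE; limma adjusted p = 0.000434), with a response of 0.09 in OPCs and -2.12 in astrocytes. PDE10A, also a phosphodiesterase, responded by -0.13 in OPCs and -1.26 in astrocytes (difference 1.14 ± 0.15, limma adjusted p = 0.0190).

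TENM2 responded by -0.78 in OPCs and 0.45 in astrocytes (difference -1.23 ± 0.17, limma adjusted p = 0.0190). It was at 698, 691 and 915 CPM in control and 472, 289 and 631 CPM in sevoflurane OPCs, and at 743, 692 and 652 against 989, 552 and 1531 CPM in astrocytes, so that the astrocyte groups overlapped. GLI3 was the fourth, with -1.95 in OPCs and -0.05 in astrocytes. It was one of the 7 genes that selected the astrocytes and moved with the astrocyte markers in OPCs. It also reached the OPC count filter only in control libraries, so it entered through the group where it was high. Its difference is therefore given as a description. Without control replicate 3, 2 genes passed, and without sevoflurane replicate 3, 32 passed. The adjusted p of TENM2 rose to between 0.0846 and 0.129 without control replicate 2, control replicate 3 or sevoflurane replicate 1. That of PDE10A was between 0.0611 and 0.138 without any one of the control libraries or without sevoflurane replicate 2.

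The 3 genes called in OPCs and FKBP5 had no called difference from astrocytes. For FKBP5 the responses were 1.02 in OPCs and 1.13 in astrocytes, a difference of -0.10 ± 0.27 (limma adjusted p = 0.975), whose sign changed without control replicate 3 or sevoflurane replicate 2. IGFBP5 differed by 1.82 ± 0.36 (adjusted p = 0.140), with -0.57 in astrocytes, HDAC9 by -1.11 ± 0.22 (adjusted p = 0.162), with -0.63 in astrocytes, and EEF2K by 0.50 ± 0.14 (adjusted p = 0.475).

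**Figure D5:**
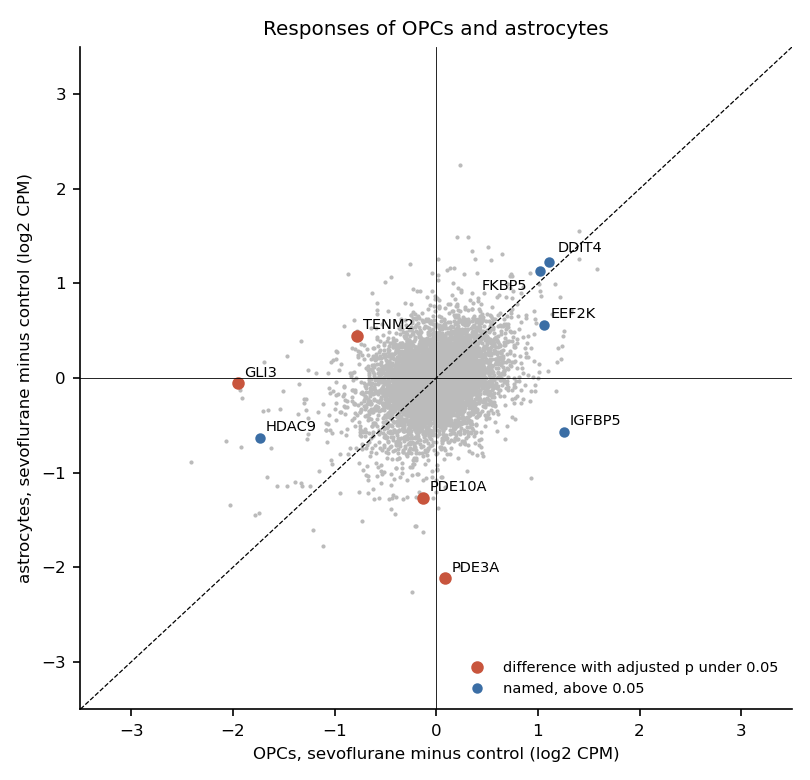
Sevoflurane minus control in log2 CPM for OPCs (x axis) and astrocytes (y axis), 1 point for each of 8731 genes; the dashed line marks equal responses. PDE3A and PDE10A lie low on the vertical axis with little change in OPCs, and FKBP5 and DDIT4 lie near the dashed line.

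Against 347 mature oligodendrocytes, 1 of 2990 genes passed (0.0334%). NAV2, a neuron navigator protein of the cytoskeleton, was at 1173, 1296 and 949 CPM in control and 842, 943 and 1136 CPM in sevoflurane OPCs, and at 261, 163 and 53.0 against 450, 571 and 588 CPM in oligodendrocytes. Its response was -0.22 in OPCs and 1.85 in oligodendrocytes (difference -2.07 ± 0.32, limma adjusted p = 0.0215). The call was lost with adjusted p-values of 0.0596 to 0.147 when any library other than control replicate 1 was left out. FKBP5 responded by 1.03 in OPCs and 0.10 in oligodendrocytes (0.92 ± 0.43, limma adjusted p = 0.714). Mature oligodendrocytes numbered 31 to 85 per library, so that fewer genes could be compared.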

How the data were processed

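The authors deposited unnormalised UMI counts for 6 libraries, 1 matrix of genes by barcodes each, per the file headers and values. Counting was done with Cell Ranger 6.1.1 per the file headers, and CASAVA 1.8 and Seurat are named in the submitters' processing notes. The genome build is not given in the sources used here. Symbols came from the deposited features (15188 genes) or the gene name table (1397), and 12735 of 29320 genes had none. The OPC rule, the members and the gene lists were chosen with earlier results of these data known, and the ependymal list and the removal of barcodes by it were added after these data were seen.

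Counts were summed over selected cells per library and tested with edgeR 4.0.16 (TMM, filterByExpr, quasi-likelihood, no block), with CPM on TMM-scaled sizes for the tested classes. SEs are the log2 fold change over the root of F. Response differences used limma 3.58.1 with a prior count of 2. Mature oligodendrocytes needed 4 of the 5 named genes of a list of 7 (MOBP and ASPA carry no name in the features) and astrocytes 4 of 7. Doublets were scored with scrublet in scanpy 1.11.5, with the median of the automatic thresholds (0.190) used for all libraries, and were kept in the main fit. Named genes were the called genes, filled to 5 per direction by smallest p, FKBP5, NR3C1, NR3C2, and list members by smallest p (a few members with larger p were chosen after their values were seen: TSC22D3, SGK1, HSP90AA1). A gene named by this rule is not reported here. Thinning drew UMIs without replacement, and single-library shares have exact Clopper-Pearson intervals. On simulated counts for 9056 genes the edgeR test recovered 51% of 2-fold and 97% of 4-fold changes, with 8 false calls. For OPCs against astrocytes (8731 genes) limma recovered 15% and 74%. Both simulations drew counts from the fitted dispersion trend, with no library standing apart, so these rates need not hold for the measured libraries. Alternatives were DESeq2 1.42.0, no filter, a replicate block, each library left out, stricter OPC limits and removal of doublets. Depth limits the low genes: intervals cover counting error only, and the median SE over genes was 0.25 log2 units.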

Additional observations from a re-analysis of the deposited data

Results flagged for a closer look

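Response differences between OPCs and another cell class passed the limma threshold for 5 genes, which marks them for a second look. Against astrocytes the difference of responses (OPC minus astrocyte, log2) was 2.21 for PDE3A, -1.89 for GLI3, 1.14 for PDE10A and -1.23 for TENM2. Against mature oligodendrocytes it was -2.07 for NAV2. GLI3 helped select the astrocytes, so its test is not independent of that selection. It also reached the OPC count filter only in control libraries, so its test carries no weight of its own. For PDE3A, PDE10A and NAV2 the OPC response was between -0.22 and 0.09, and that of the other class -2.12 (PDE3A), -1.26 (PDE10A) and 1.85 (NAV2).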

How the results depend on the processing

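Of 755 alternative values for 60 single-gene results, 689 kept the direction and the side of the threshold, 28 lost the call, 25 gained it and 13 changed sign. The 3 called OPC genes became 7 with DESeq2 and 141 (58 higher, 83 lower) with no filter on low counts, where 20458 genes were tested, and 0 to 23 when 1 library was left out. GLI3 was among the 7, the 141 and the 23, and VCAN, a selection gene, among the 23. FKBP5 in OPCs passed with no filter (log2 fold change 1.04, edgeR adjusted p = 0.000341). Genes whose response differed from oligodendrocytes numbered 0 with a prior count of 0.5 (NAV2 at limma adjusted p = 0.109), 0 to 1 when 1 library was left out and 1 with 3 oligodendrocyte genes required, an alternative chosen after seeing the data. From astrocytes they numbered 2 to 32 when 1 library was left out, and the FKBP5 difference from astrocytes then ran from -0.40 to 0.16. The difference in the share of OPCs with an FKBP5 UMI was 3.98 percentage points after thinning to 1000, 6.24 to 2000 and 9.02 without thinning, and for GPR17 0.237, 0.642 and 0.417. NR3C2 (log2 fold change -0.02) ran from -0.0793 to 0.0503 when 1 library was left out, above 0 without control replicate 2 (0.0071), control replicate 3 (0.0112) or sevoflurane replicate 3. It was also above 0 with at least 5 of 7 genes detected (0.00034), without doublets (0.0469) and without ependymal barcodes (0.00934), and CFAP299 was without ependymal barcodes (0.089). With 1 library left out, TSC22D3 ran from -0.472 to 0.0144, HSP90AA1 from -0.47 to 0.11 and SGK1 from -0.109 to 0.134, and SGK1 was at -0.0146 with no filter. The cause of these changes was not tested.

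With the replicate block, 2 OPC genes passed (HDAC9 and IGFBP5; EEF2K had an edgeR adjusted p of 0.103), FKBP5 had a log2 fold change of 1.06 (adjusted p = 0.187), and 11 genes differed in response from oligodendrocytes and 3 from astrocytes (TENM2 at limma adjusted p = 0.0725). Deviations of same-numbered libraries correlated at -0.141, 0.0416 and -0.175, and those of differently numbered libraries at -0.111 to 0.190. As deviations from means of 3 libraries, these values cannot tell whether same-numbered libraries shared an animal, day or batch. The labels do not state it. Between 42 and 103 FKBP5 UMIs per library and 31 to 85 oligodendrocytes per library limit what small differences could be seen.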
